A study of Mus musculus with 36 samples.

Results

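The liver of mice on normal chow was compared between ZT16, early in the dark phase when mice are active, and ZT4, early in the light phase when they rest. ZT, zeitgeber time, is given in hours after the lights came on, and the lights were on for 12 h a day. The comparison used 6 samples of the 36 in the series, chosen by their labels as normal chow at ZT4 or ZT16, with 3 samples at each time and 1 array a sample. All 6 came from C57BL/6J mice, an inbred strain, that were 16 weeks old and had food at all times. The other samples were taken every 4 h on the same chow or on a high fat diet, with 60% of calories from fat for 10 weeks. The samples carry numbers 1 to 3 and the labels speak of animals without saying that each number is a separate animal. The p-values therefore reflect only how far samples varied within the 12 groups of the whole series, which may in part be technical. No sex, genotype change, array batch or scan date is given in the sources used here.

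Affymetrix gene arrays that probe whole transcripts measured the RNA, and every level below is log2(intensity + 16), so that a difference of 1 is a doubling and the change of dim genes is understated. Levels show the same gene at both times and are not compared between genes. Array medians of the 6 samples lay between 78.2 and 86.1 on the linear scale, and the number of arrays limits the precision. Log2 values correlated at 0.980 to 0.993 between arrays of the same time and at 0.965 to 0.985 between times. ZT4 replicate 2 and ZT16 replicate 1 stood apart, with quality weights of 0.265 and 0.409 where the other 4 arrays had 0.937 to 1.564. Genes defining hepatocytes averaged 11.15 to 11.20 in the ZT4 arrays and 11.18 to 11.42 in the ZT16 arrays, and 13 of the 17 tested had a positive difference. Limma called none of the 17, or 1 without ZT16 replicate 3. At an unadjusted p under 0.05, 3 of the 17 were higher and 1 lower, against 2814 of all 13956 genes tested in either direction. Of 105 tested markers in 10 lists for other cell types and tissues, 1 was higher (Fabp2) and 2 were lower at ZT16 (Ngfr and Pkhd1). Fabp2 lost its call without ZT4 replicate 1 or 2 or ZT16 replicate 1 or 2 (limma adjusted p up to 0.19). Macrophage markers averaged 7.92 to 8.63 at ZT4 and 8.11 to 8.39 at ZT16, with the highest value in ZT4 replicate 3. Kdm5d, a gene of the Y chromosome, had a level between 8.37 and 8.65 in all 6 samples. In bulk liver, fewer cells of a type and less RNA per cell cannot be told apart.

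The molecular clock is a feedback loop in which BMAL1 (Arntl) and CLOCK bind E-boxes and switch on their own repressors, the PER and CRY proteins. Another loop runs through REV-ERB (Nr1d1, Nr1d2) and ROR receptors, which repress and activate Arntl through the same response element, and one more through the PAR bZIP factors at D-boxes. In liver this clock and feeding are known to time genes of lipid, sugar, bile acid and heme metabolism.

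Of 13956 genes tested with limma, 944 differed between ZT16 and ZT4 at a Benjamini-Hochberg adjusted p under 0.05, which is 6.76% of the genes tested. They divided into 455 higher at ZT16 (3.26%) and 489 lower (3.5%), and the counts of each list below are to be read against these shares. At an unadjusted p under 0.05 limma gave 2814 of the 13956 genes, in either direction. That is the background for the unadjusted counts of the lists. The median size of a called difference was 0.44, and 37 of the higher and 19 of the lower genes differed by at least 2-fold. The 3 arrays of one time lay wholly on one side of the other 3 for 916 called genes, against 20% of all genes tested, 9.27% with ZT16 above and 10.8% with ZT16 below. Leaving out both arrays of low weight gave 258 higher and 669 lower, and a fit on these 6 arrays alone, with fewer degrees of freedom, gave 95 and 82. The total was 605 without ZT16 replicate 2 and 629 without ZT16 replicate 3. Higher genes numbered 299 without ZT16 replicate 1 and 302 without ZT4 replicate 2, and lower genes 294 without ZT16 replicate 2, 265 without ZT16 replicate 3 and 267 without ZT4 replicate 3.

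**Figure D1:**
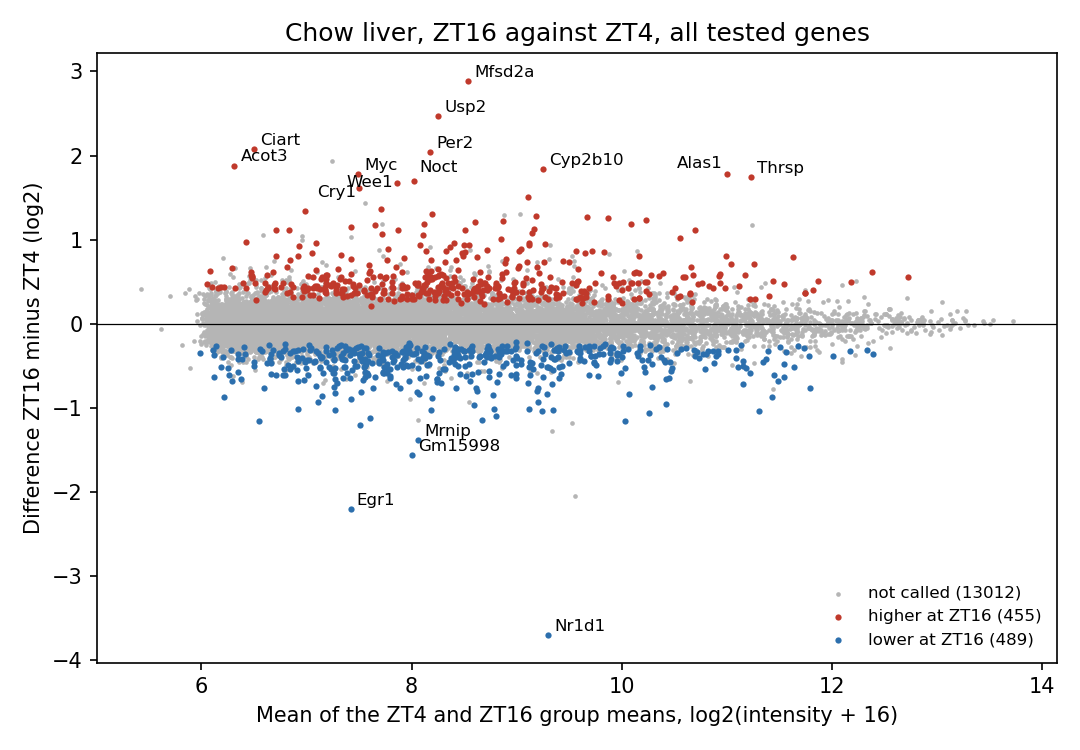
Difference ZT16 minus ZT4 (log2, vertical axis) against the mean level of each of the 13956 tested genes (log2(intensity + 16), horizontal axis), with 455 genes called higher in red, 489 called lower in blue and the others in grey. Nr1d1 lies lowest at -3.70 and Mfsd2a highest at 2.89, and most called genes lie within 1 of 0.

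The genes that changed most included clock components and genes of lipid, heme and xenobiotic metabolism. Mfsd2a, a transporter of lysophosphatidylcholine, read 6.51, 7.28 and 7.48 in the ZT4 arrays and 10.38, 10.53 and 9.03 in the ZT16 arrays. Its lowest ZT16 value was well above its highest ZT4 value, and the difference of 2.89 ± 0.43 (SE, limma adjusted p = 5.07e-05) corresponds to 7.40-fold. Thrsp, a regulator of lipogenesis, read 10.53, 10.17 and 10.39 at ZT4 and 11.92, 12.18 and 12.21 at ZT16. The groups were tight and apart, with a difference of 1.74 ± 0.20 (adjusted p = 9.01e-07). Alas1, the rate-limiting enzyme of heme synthesis, rose from 10.11 ± 0.59 to 11.89 ± 0.30 (SD, n = 3 each). Its ZT4 value was highest in replicate 1, at 10.77, still below the lowest ZT16 value of 11.56. Cyp2b10, a cytochrome P450 induced through the receptor CAR, rose from 8.33 ± 0.48 to 10.17 ± 0.40 (SD, n = 3 each, adjusted p = 0.000725). Cyp2b10 has close relatives, whose RNA may contribute to its probe set.

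On the other side, Nr1d1 fell furthest and is described with the clock below. Gm15998 fell by 1.56, from 8.78 ± 0.25 to 7.22 ± 0.33, and Mrnip, a DNA repair factor, fell by 1.38, from 8.75 ± 0.05 to 7.37 ± 0.24 (SD, n = 3 each). The E3 ligase component Fbxo21 had a difference of -1.16 ± 0.19, the tight junction gene Ocln of -1.14 ± 0.19 and the sialyltransferase St6gal1 of -1.10 ± 0.16 (SE). Tcp11l2 differed by -1.21, the transcription factor Rfx4 by -1.16, the phosphatase Phospho1 by -1.12 and the apoptotic protease Casp6 by -1.04. Their adjusted p-values ran from 2.48e-07 for Mrnip to 0.00592 for Phospho1, and these 9 calls held when any of the 6 arrays was left out. Arrdc3 had a difference of -1.06, and without ZT16 replicate 2 it was -0.85 with an adjusted p of 0.055.

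Many called genes had their extremes over the day at or next to the times compared. Of the 455 higher genes, 239 had their highest chow mean of the 6 times at ZT16 and 112 at ZT12, while 318 had their lowest at ZT4. Of the 489 lower genes, 293 peaked at ZT4 and 137 at ZT8, and 233 were lowest at ZT16 and 129 at ZT20. These counts use the means that made the calls and are a description.

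Among the repressors of the clock, 5 of 10 tested were higher at ZT16 and 2 were lower, against 3.26% and 3.5% of all genes. Per2 read 6.91, 7.22 and 7.36 at ZT4 and 9.20, 9.12 and 9.28 at ZT16. Every ZT16 array was well above every ZT4 array, a 4.11-fold rise (2.04 ± 0.13 SE, limma adjusted p = 1.2e-11). Cry1, the other arm of the PER and CRY repressor, read 6.76, 6.82 and 6.51 against 8.12, 8.43 and 8.37, and rose by 1.61 ± 0.12. Per3 rose by 1.17 ± 0.14, with ZT4 values of 6.83, 6.96 and 7.43. Ciart, a repressor of CLOCK and BMAL1, read 5.05, 4.84 and 6.48 at ZT4 and 7.82, 7.55 and 7.25 at ZT16. ZT4 replicate 3 was the highest of its group in Ciart, Per3, Per2 and Per1, and no ZT4 value of these genes reached a ZT16 value. Per1 rose by 0.84 ± 0.21 (adjusted p = 0.0104), and the call was lost without ZT4 replicate 1 (0.67, adjusted p = 0.0757) or ZT4 replicate 2 (0.73, adjusted p = 0.0569).

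Nr1d1, which encodes REV-ERB alpha, read 11.10, 11.04 and 11.30 at ZT4 and 7.85, 7.38 and 7.10 at ZT16. The groups were far apart, and the difference of -3.70 ± 0.26 (SE, adjusted p = 5.8e-11) is 13.0-fold, the largest difference of any called gene. Its paralog Nr1d2 read 9.80, 9.70 and 9.92 against 9.61, 9.39 and 9.04, a difference of -0.46 ± 0.17 that did not pass (adjusted p = 0.0946). Bhlhe41, an E-box repressor, had a difference of -0.57 ± 0.17 (adjusted p = 0.0355). That call was lost without ZT4 replicate 3 (-0.38, adjusted p = 0.231), ZT16 replicate 3 (-0.44, adjusted p = 0.193) or ZT16 replicate 2 (-0.62, adjusted p = 0.0558). Its paralog Bhlhe40 differed by 0.64 ± 0.20 (adjusted p = 0.0528) and Cry2 by 0.27 ± 0.11 (adjusted p = 0.136).

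Limma called none of the 6 tested genes of the activating arm, and 1 (Nfil3) had an unadjusted p under 0.05. Arntl read 8.60, 8.07 and 7.99 at ZT4 and 8.13, 8.14 and 8.38 at ZT16, overlapping groups with the same mean of 8.22. Its chow means over the day were 9.11 at ZT0, 6.28 at ZT8, 6.22 at ZT12 and 8.96 at ZT20. The compared times thus lay on the falling and the rising side of its trough. Clock differed by -0.09, Rora by -0.14, the kinases Csnk1d and Csnk1e by -0.06 and -0.04, and Nfil3, a repressor at D-boxes, by 0.36 ± 0.14 (adjusted p = 0.147).

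Of 13 tested PAR bZIP factors and clock outputs, 7 were higher and 2 lower at ZT16. Usp2, a deubiquitinase, read 6.57, 7.23 and 7.25 at ZT4 and 9.73, 9.52 and 9.21 at ZT16, a 5.53-fold rise with no overlap. Noct, which removes a phosphate from NADP(H), rose by 1.70 ± 0.26, the cell cycle kinase Wee1 by 1.67 ± 0.21, Lonrf3 by 1.34 ± 0.13 and the tetraspanin Tspan4 by 1.19 ± 0.10. Nampt, the rate-limiting enzyme of NAD salvage, rose from 9.24 ± 0.30 to 10.50 ± 0.14 (SD, n = 3 each, adjusted p = 3.85e-08). Hlf differed by 0.31 ± 0.10 (adjusted p = 0.0445), with adjusted p between 0.062 and 0.237 without ZT16 replicate 1 or 3 or ZT4 replicate 1 or 2. Dbp, the PAR bZIP factor that peaks in the light phase, read 8.72, 8.91 and 9.60 against 8.60, 8.00 and 7.73. It fell by 0.97 ± 0.17 (adjusted p = 0.000346), although its lowest ZT4 value lay only just above its highest ZT16 value. Rnf125, a ubiquitin ligase, fell by 1.04 ± 0.13. Tef, Leap2, Upp2 and Tars were not called, with differences of 0.32, 0.52, 0.06 and -0.07.

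**Figure D2:**
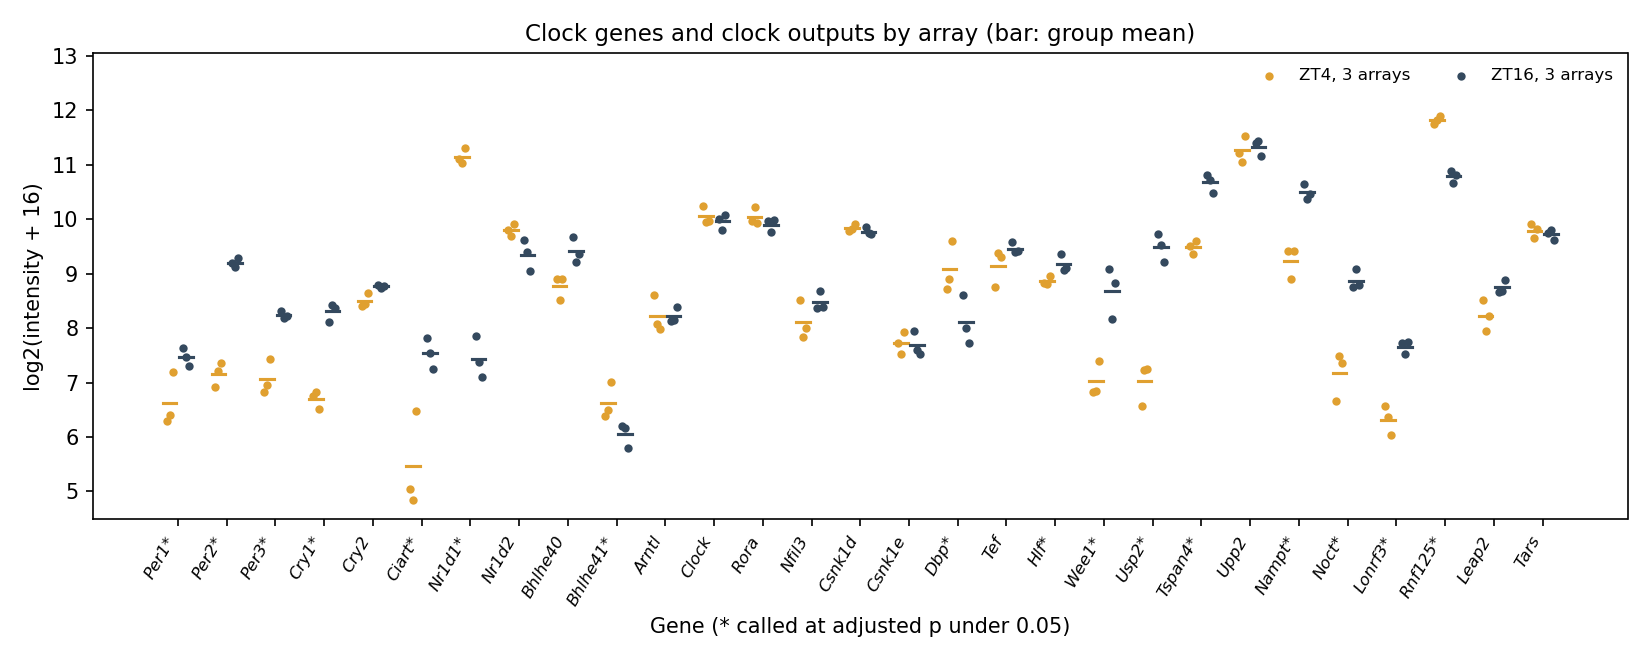
Level in each array, log2(intensity + 16), of 29 clock genes and clock outputs at ZT4 (yellow) and ZT16 (dark), with a bar at each mean of 3 arrays and an asterisk on called genes. Nr1d1 drops from about 11.15 to 7.44, Per2, Cry1, Ciart and Usp2 lie higher at ZT16, and the 2 groups of Arntl share the mean 8.22.

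Called clock repressors are shown with the E-box letters, CACGTG, in capitals inside the window from 250 bases before to 50 bases after a RefSeq gene start (GRCm38.p6). The E-box reads the same on both strands. Of the 8 repressors with a window in the table, 4 held it, against 11.2% of 11058 tested genes with a window. Among called genes 16.5% of those higher and 15.3% of those lower held it. Lines give up to 40 bases on each side, 5′ to 3′ on the gene's strand.
Ciart, chr3:95882227-95882384, minus strand: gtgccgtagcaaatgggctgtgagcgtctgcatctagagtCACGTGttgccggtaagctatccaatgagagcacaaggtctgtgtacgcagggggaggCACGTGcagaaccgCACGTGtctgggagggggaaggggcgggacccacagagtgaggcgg
Cry1, chr10:85185069-85185154, minus strand: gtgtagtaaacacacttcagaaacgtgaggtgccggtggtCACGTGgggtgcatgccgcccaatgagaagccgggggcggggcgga
Per1, chr11:69098743-69098828, plus strand: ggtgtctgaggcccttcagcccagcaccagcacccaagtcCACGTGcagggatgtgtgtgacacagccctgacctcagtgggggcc
Bhlhe41, chr6:145865528-145865613, minus strand: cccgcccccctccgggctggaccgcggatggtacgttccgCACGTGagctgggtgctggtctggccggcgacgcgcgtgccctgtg
Ciart, Cry1 and Per1 were higher and Bhlhe41 was lower at ZT16, so the letters stood in windows of genes that moved in opposite directions. Ciart held 3 matches and the others 1 each.

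Per3 and Arntl carried the other elements of the loops, the D-box (TTANGTAA or TTACNTAA, the same site read from either strand) and the ROR element, searched by its core (TAGGTCA, or TGACCTA on the other strand). The D-box stood in windows of 1.98% of tested genes and the ROR core in those of 2.51%. Nfil3 also held the ROR core.
Per3, D-box, chr4:151044776-151044910, minus strand: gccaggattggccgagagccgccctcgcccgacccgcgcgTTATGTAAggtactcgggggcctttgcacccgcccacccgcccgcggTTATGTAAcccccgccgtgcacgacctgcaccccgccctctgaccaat
Arntl, ROR core, chr7:113207501-113207560, plus strand: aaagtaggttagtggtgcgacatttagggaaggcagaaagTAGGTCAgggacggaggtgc
A match to letters is a description of the window, not a measured binding site.

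Heat shock genes rose together at ZT16. Of 23 tested heat shock genes and targets of the heat shock factor HSF1, 16 were higher and none was lower (18 and 0 at an unadjusted p under 0.05), with a median difference of 0.51 against -0.015 over all genes. Limma called 16 of them when any of the 6 arrays was left out, 15 without both arrays of low weight, and 6 in the fit on the 6 arrays alone. The members averaged 9.31 to 9.43 in the ZT4 arrays and 9.82 to 9.95 in the ZT16 arrays, without overlap.

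Hsph1, an HSP110 nucleotide exchange factor, read 7.90, 9.09 and 8.07 at ZT4 and 9.64, 9.91 and 10.04 at ZT16, and rose by 1.51 ± 0.21 (SE, limma adjusted p = 1.58e-05). Its value in ZT4 replicate 2 stood above the other ZT4 arrays and below all ZT16 arrays, and the same array was highest in its group for Hsp90aa1 (11.24) and Hspa4l (8.53). Dnajb1, a co-chaperone of HSP70, read 7.46, 7.22 and 7.29 against 8.68, 8.29 and 8.32, tight groups that were clearly apart (1.11 ± 0.13, adjusted p = 1.69e-06). The co-chaperone Bag3 rose by 0.94 ± 0.13 and Stip1, which links HSP70 to HSP90, by 0.58 ± 0.09. Hspa8, the constitutive HSP70, read 12.42, 12.36 and 12.58 against 13.04, 12.93 and 13.05, so it rose by 0.55 ± 0.09 from a high level. The inducible Hspa1a rose from 6.52 ± 0.07 to 7.33 ± 0.09 (SD, n = 3 each), and its near-identical neighbour Hspa1b may share this signal. The other called members were Chordc1 (0.96), Hspb1 (0.95), Hspa4l (0.80), Hsp90aa1 (0.71), Hspa2 (0.62), Dnaja1 (0.51), Fkbp4 (0.50), Hspe1 (0.49), Dnajb4 (0.49) and Ahsa1 (0.38), all as log2 differences.

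The other 7 members did not pass. The mitochondrial HSP70 Hspa9 differed by 0.01 ± 0.06, the mitochondrial chaperonin Hspd1 by -0.04 ± 0.10, the chaperonin subunit Cct2 by -0.10 ± 0.08 and the collagen chaperone Serpinh1 by 0.26 ± 0.13. Hspa4 differed by -0.09, Hsf2 by 0.15 and Tcp1 by 0.30. Among 36 chaperones and folding factors of the endoplasmic reticulum 2 were higher and none lower, against 3.26% and 3.5% of all genes. At an unadjusted p under 0.05, 10 were higher and 1 lower. Dnajb9 rose by 0.67 ± 0.15 and Manf by 0.56 ± 0.13. Manf had an adjusted p of 0.0504 without ZT16 replicate 3. The count of higher members was 11 without ZT4 replicate 2, 8 without both arrays of low weight and 12 with array weights, and their median difference was 0.17, 0.22 and 0.18 there against 0.11.

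**Figure D3:**
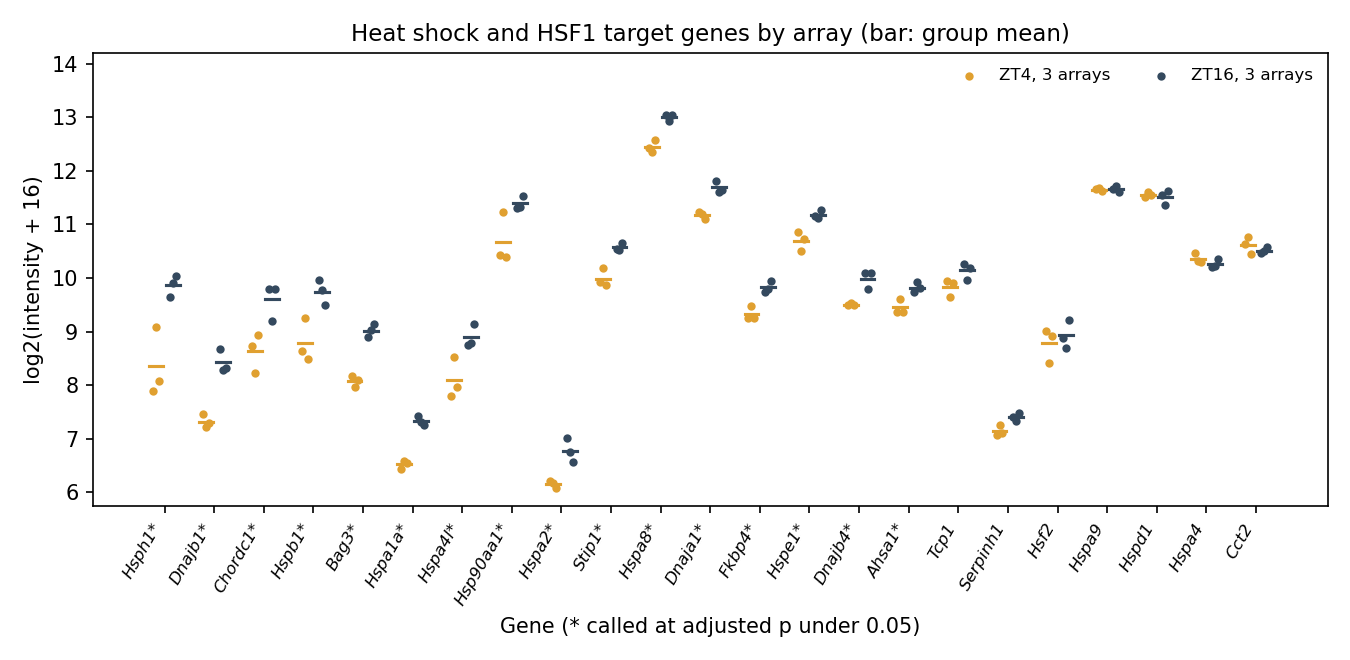
Level in each array, log2(intensity + 16), of the 23 tested heat shock genes ordered by their difference, with ZT4 in yellow, ZT16 in dark, bars at the means of 3 arrays and an asterisk on called genes. The 16 called genes lie higher at ZT16, and the last 4 genes, Hspa9, Hspd1, Hspa4 and Cct2, overlap.

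The promoters of 3 chaperone genes are shown because they hold a full heat shock element, searched on both strands as 3 units of GAA, 2 bases apart and with every other unit inverted to TTC. Capitals mark its span. It stood in windows of 4 of 20 list members with a window, against 0.543% of tested genes. The list was drawn up to hold targets of HSF1, so this share does not bear on the change at ZT16. Among called genes 1.65% of those higher and 0.765% of those lower held it.
Hsph1, chr5:149636266-149636340, minus strand: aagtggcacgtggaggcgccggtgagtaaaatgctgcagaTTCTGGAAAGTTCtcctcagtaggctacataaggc
Hspe1, chr1:55088019-55088116, plus strand: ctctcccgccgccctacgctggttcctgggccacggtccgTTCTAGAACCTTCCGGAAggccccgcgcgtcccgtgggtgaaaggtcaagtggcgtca
Chordc1, chr9:18292223-18292316, plus strand: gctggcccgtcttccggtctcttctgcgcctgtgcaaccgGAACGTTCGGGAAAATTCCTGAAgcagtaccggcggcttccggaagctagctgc
Hspe1 and Hspd1 are divergent neighbours that share this window on opposite strands. Hspe1 read 10.85, 10.51 and 10.72 at ZT4 and 11.15, 11.12 and 11.27 at ZT16 and was called higher. Hspd1 read 11.51, 11.60 and 11.54 against 11.54, 11.36 and 11.62, overlapping groups.

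RNA-binding genes known to respond to cooling moved in both directions. Of 11 tested, 2 were lower and 1 higher at ZT16. Cirbp, the cold-inducible RNA-binding protein, read 8.49, 7.66 and 8.49 at ZT4 and 7.54, 7.55 and 7.39 at ZT16. ZT4 replicate 2 lay close to the ZT16 arrays, and the difference was -0.72 ± 0.16 (limma adjusted p = 0.00372). Rbm3, the other classic member, read 10.37, 9.81 and 10.36 against 10.58, 10.21 and 10.31, overlapping groups (0.18 ± 0.14). The splicing factor Srsf5 had a difference of -0.46 ± 0.11, and -0.38 (adjusted p = 0.0671) without ZT4 replicate 3. Sfpq differed by 0.39 ± 0.10 (adjusted p = 0.0152), and its adjusted p was 0.058, 0.0663 and 0.102 without ZT16 replicate 2, ZT4 replicate 2 and ZT4 replicate 3.

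In lipid metabolism called genes of fatty acid synthesis were mostly higher at ZT16 and called genes of sterol synthesis lower. Of 27 genes of fatty acid and triglyceride synthesis, 3 were higher (Thrsp, Elovl6 and Fasn) and 1 lower (Lpin3), against 3.26% and 3.5% of all genes. Elovl6, which elongates palmitate, read 10.54, 10.49 and 10.73 at ZT4 and 11.44, 11.28 and 11.46 at ZT16 (0.81 ± 0.21, adjusted p = 0.0134; 0.0525 without ZT16 replicate 3). Fasn, fatty acid synthase, read 11.24, 11.14 and 11.31 against 12.03, 12.08 and 11.95. Its groups were tight and apart by 0.79, but the spread over all 12 groups was wider (SE 0.24, adjusted p = 0.0368), and each array left out took the adjusted p to between 0.0675 and 0.107. Lpin3 had a difference of -0.25 ± 0.08 (adjusted p = 0.0442, up to 0.153 with any 1 array left out).

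Of 18 cholesterol synthesis genes none was higher and 2 were lower (0 and 3 at an unadjusted p under 0.05), with a median of -0.23. Hmgcs1, the HMG-CoA synthase, read 12.06, 11.58 and 11.93 at ZT4 and 10.82, 10.83 and 11.33 at ZT16 (-0.87 ± 0.15, adjusted p = 0.000405). Mvk, mevalonate kinase, fell by 0.76 ± 0.14. Scap, which escorts the SREBP factors to the Golgi, fell by 0.52 ± 0.08 (adjusted p = 0.000117), from 10.39, 10.49 and 10.53 to 10.02, 9.92 and 9.90. Srebf1, the lipogenic SREBP, differed by 0.49 ± 0.14 (adjusted p = 0.0302) and Insig2, which retains SREBP in the endoplasmic reticulum, by -0.50 ± 0.14 (adjusted p = 0.0229). Srebf1 lost its call with any 1 array left out (adjusted p up to 0.0946), and Insig2 without ZT4 replicate 2, ZT16 replicate 1 or ZT16 replicate 2 (up to 0.153).

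Of 34 genes of fatty acid oxidation and PPARA targets, 3 were higher and none lower. They were Acot3 (1.88 ± 0.56), Pex11a (0.58 ± 0.17) and Eci2 (0.40 ± 0.10). At an unadjusted p under 0.05, 7 of the 34 were higher and 1 lower, against 2814 of all 13956 genes in either direction. Acot3 belongs to a cluster of similar thioesterase genes and had an adjusted p between 0.0587 and 0.12 with any 1 array left out. Pex11a lost its call without ZT4 replicate 1 or 3 or ZT16 replicate 1 or 2 (adjusted p up to 0.116), and Eci2 without ZT4 replicate 2 or ZT16 replicate 1 (up to 0.0876). The higher count was 0 without ZT16 replicate 1 and 1 without ZT16 replicate 2, ZT4 replicate 2 or ZT4 replicate 3. Limma called none of 6 genes of ketone bodies and Fgf21 (1 at an unadjusted p under 0.05).

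Bile acid genes moved both ways, with 3 of 25 higher and 4 lower, against 3.26% and 3.5% of all genes. Hsd3b7, an enzyme of the sterol nucleus, read 11.51, 11.45 and 11.56 at ZT4 and 10.84, 10.72 and 10.80 at ZT16, tight groups apart by -0.72 ± 0.08 (limma adjusted p = 1.34e-06). Cyp8b1, which makes cholic acid, fell by 0.61 ± 0.13. Nr0b2, the repressor SHP, read 9.54, 9.51 and 9.80 against 8.92, 8.69 and 8.21 and fell by 1.01 ± 0.21 (adjusted p = 0.0026). Abcg8, named after its value was seen, was the other lower gene. It lost its call without ZT16 replicate 2 or 3 or ZT4 replicate 1 or 3 (adjusted p up to 0.262). Akr1d1 differed by 0.43 ± 0.12 (adjusted p = 0.0187), with 0.141 without ZT4 replicate 2, 0.0971 without ZT16 replicate 3 and 0.0518 without ZT4 replicate 3. The count of higher genes was 0 without ZT4 replicate 2 and 1 without ZT4 replicate 1 or 3 or ZT16 replicate 1 or 2. Akr1d1 stayed positive, at 0.31 to 0.43, in the fits where its call was lost.

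A few genes of glucose storage and release were called, in both directions. The medians were 0.06 for glycogen genes and -0.04 for gluconeogenic genes, against -0.015 over all genes. Ppp1r3b, which targets a phosphatase to glycogen, read 10.23, 10.38 and 9.81 at ZT4 and 11.34, 11.23 and 11.19 at ZT16 (1.11 ± 0.16, adjusted p = 2.04e-05). Gys2, liver glycogen synthase, rose by 0.58 ± 0.10, and Phka2, a subunit of phosphorylase kinase, fell by 0.47 ± 0.08. Slc37a4, the glucose 6-phosphate transporter, read 10.55, 10.69 and 10.68 against 11.16, 11.28 and 11.26 (0.59 ± 0.08, adjusted p = 2.63e-05). In all, 2 of 16 glycogen genes were higher and 1 lower, against 3.26% and 3.5% of all genes. Of 18 gluconeogenic genes 2 were higher (Slc37a4 and Creb1), and of 15 glycolytic genes 1 was lower (Gckr). At an unadjusted p under 0.05, 3 glycogen genes were higher and 4 lower, and 4 gluconeogenic genes were higher and 3 lower. The count of lower glycogen genes was 2 without ZT16 replicate 1, ZT16 replicate 3 or ZT4 replicate 2. Creb1 had an adjusted p of 0.0892 without ZT16 replicate 1, and Gckr of 0.0528 to 0.106 with any 1 array left out.

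Targets of glucocorticoids, the adrenal hormones that peak before activity, had 3 of 14 members higher and 1 lower. Fkbp5, a co-chaperone of the glucocorticoid receptor, rose from 6.84 ± 0.26 to 8.00 ± 0.08 (SD, n = 3 each), and no ZT16 array was below 7.93 (1.15 ± 0.15 SE). Tsc22d3, the leucine zipper gene GILZ, read 8.28, 8.48 and 8.27 against 9.33, 9.33 and 9.41 (1.01 ± 0.14, adjusted p = 2.61e-05). Both stood well apart between the times. Per1, described with the clock, was the third, and Klf9 fell by 0.66 ± 0.12.

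In insulin signalling 2 of 25 genes were higher and 4 lower, against 3.26% and 3.5% of all genes. Pik3r1, a regulatory subunit of PI3 kinase, rose by 0.60 ± 0.11, and Trib3, an inhibitor of AKT, fell by 0.81 ± 0.12, from 8.37, 8.27 and 8.75 to 7.53, 7.78 and 7.66. Tsc22d3 was the other higher member. Grb14 differed by -0.30 ± 0.08 (adjusted p = 0.0146), and by -0.27 or -0.28 without ZT16 replicate 2, ZT4 replicate 2 or ZT4 replicate 3 (adjusted p up to 0.0811). Irs2 (-0.48) and Rictor (-0.33), named after their values were seen, lost their calls in 5 and 4 of the 6 fits without 1 array. The lower count was 1 without ZT16 replicate 2 or ZT4 replicate 3, and 2 without ZT16 replicate 3 or ZT4 replicate 1. Among 23 genes of the integrated stress response 2 were higher and 2 lower. Atf5 fell by 0.69 ± 0.11 beside Trib3, and Ppp1r15b, which recruits a phosphatase to eIF2, rose by 0.46 ± 0.10. Ddit3 differed by 0.49 ± 0.14 (adjusted p = 0.0282, up to 0.124 without ZT16 replicate 1 or 3 or ZT4 replicate 1 or 2).

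Immediate early genes, which answer to stimuli within minutes and to handling, varied between arrays. Egr1 read 8.32, 7.28 and 9.97 at ZT4 and 6.96, 6.21 and 5.79 at ZT16 (-2.20 ± 0.59, adjusted p = 0.0195). The ZT4 arrays spread widely, and the call was lost without ZT4 replicate 3 (-1.48, adjusted p = 0.164), ZT16 replicate 3 (-1.94, 0.0988) or ZT16 replicate 2 (-2.15, 0.0661). Junb read 7.34, 7.53 and 7.87 against 6.77, 6.64 and 6.54 and fell by 0.93 ± 0.16. Myc read 6.96, 6.08 and 6.75 against 9.42, 8.71 and 7.01, a wide spread at ZT16 (1.78 ± 0.56, adjusted p = 0.0498). Its adjusted p lay between 0.0637 and 0.242 without any 1 of ZT4 replicates 1, 2 and 3 and ZT16 replicates 1 and 2.

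A few enzymes of NAD, one-carbon and amino acid metabolism were called in each direction, where all genes had 3.26% higher and 3.5% lower. Nmrk1, a nicotinamide riboside kinase, rose by 0.89 ± 0.14 beside Nampt. In the list of NAD synthesis 3 of 21 were higher and 1 lower, and the other called members, Nadk (0.26) and Kynu (-0.26), each lost their calls in 5 of the 6 fits without 1 array. Amt, of the glycine cleavage system, read 9.72, 9.42 and 9.60 at ZT4 and 8.72, 8.74 and 9.01 at ZT16 (-0.76 ± 0.09, limma adjusted p = 3.53e-06). Cbs, cystathionine beta-synthase, fell by 0.63 ± 0.10. Among 22 one-carbon genes these 2 were lower and Mtrr, which reactivates methionine synthase, was higher (0.32 ± 0.08), but not without ZT16 replicate 3 (adjusted p = 0.061) or ZT4 replicate 2 (0.0507).

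In the urea cycle and amino acid breakdown 2 of 29 genes were higher and 2 lower, against 3.26% and 3.5% of all genes. Asl, argininosuccinate lyase of the urea cycle, rose by 0.47 ± 0.08 and kept its call without any 1 array. The higher count was 1, Asl alone, without ZT16 replicate 2, ZT16 replicate 3 or ZT4 replicate 3, where Prodh (0.35) lost its call. The lower count was 0 without ZT16 replicate 3, ZT4 replicate 1 or ZT4 replicate 3, and 1 without ZT16 replicate 2, where another member was called. Agxt (-0.45) and Cdo1 (-0.31), the lower members, both lost their calls in each of these 4 fits (adjusted p 0.0754 to 0.198). Of 29 genes of purine and pyrimidine metabolism 4 were higher and none lower. They were Uck1 (0.56) and Uck2 (0.40), kinases of uridine and cytidine, Umps (0.37), which makes UMP, and Ppat (0.37), which commits to purine synthesis. At an unadjusted p under 0.05, 6 of the 29 were higher and 1 lower, against 2814 of all 13956 genes in either direction. The higher count was 0 without ZT16 replicate 3 or ZT4 replicate 2, 1 without ZT16 replicate 1 or ZT4 replicate 1, and 2 without ZT16 replicate 2.

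Among 28 xenobiotic genes 5 were higher and 1 lower (Rxra, -0.29, named after its value was seen), and besides Alas1 and Cyp2b10 the cytochrome Cyp3a13 rose by 0.45 ± 0.09. The higher count was 3 without ZT4 replicate 2 or without ZT16 replicate 1, and the lower count was 0 without ZT16 replicate 2, ZT16 replicate 3 or ZT4 replicate 3 and 2 without ZT16 replicate 1. Among 25 acute phase proteins 3 were higher and 2 lower, against 3.26% and 3.5% of all genes. Steap4, a metalloreductase, rose by 0.62 ± 0.13 and kept its call without any 1 array. Saa4 (0.51) and Orm3 (1.21) both lost theirs without ZT16 replicate 2 (adjusted p 0.0694 and 0.0607), which left 1 higher. Orm3 also lost its call without ZT16 replicate 3 (0.85, limma adjusted p = 0.18) or ZT4 replicate 2 (0.98, adjusted p = 0.118). Lbp (-0.37) and Apcs (-0.65), the latter named after its value was seen, were the lower members. The lower count was 0 without ZT16 replicate 3, ZT4 replicate 2 or ZT4 replicate 3, and 1 without ZT16 replicate 2 or ZT4 replicate 1.

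Interferon-stimulated genes, the antiviral program, were lower where called. Of 19 tested, 5 were lower and none higher (9 and 0 at an unadjusted p under 0.05), with a median of -0.25. The members averaged 8.0, 7.73 and 8.01 in the ZT4 arrays and 7.72, 7.69 and 7.63 in the ZT16 arrays. ZT4 replicate 2 thus lay close to the ZT16 arrays. Usp18, which removes the modifier ISG15, read 8.74, 8.38 and 8.77 at ZT4 and 7.71, 7.73 and 7.83 at ZT16 (-0.88 ± 0.14, limma adjusted p = 0.000153), and this call held with any of the 6 arrays left out. The others were Ifit1 (-0.65 ± 0.18), Rsad2 (-0.65 ± 0.20), Xaf1 (-0.54 ± 0.14) and Irf9 (-0.39 ± 0.12). Rsad2 lies outside the naming rule and was named after its value was seen. The count was 1 without ZT4 replicate 3 and 2 without ZT4 replicate 1, ZT16 replicate 2 or ZT16 replicate 3. Macrophage markers, given above, were highest in ZT4 replicate 3, and their part in this count was not tested.

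The interferon-stimulated response element, reduced here to 2 copies of GAAA that are 2 bases apart (TTTC on the other strand), stood in windows of 7 of 14 such genes against 3.58% of tested genes. The list was drawn up to hold interferon targets, so this share does not bear on the change at ZT16. Among called genes 3.3% of those higher and 3.06% of those lower held the element. Ifit1 and Rsad2 are shown as called members that hold it, with its span in capitals.
Ifit1, chr19:34640745-34640853, plus strand: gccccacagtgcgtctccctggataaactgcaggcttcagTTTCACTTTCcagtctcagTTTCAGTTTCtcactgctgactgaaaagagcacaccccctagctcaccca
Rsad2, chr12:26456523-26456612, minus strand: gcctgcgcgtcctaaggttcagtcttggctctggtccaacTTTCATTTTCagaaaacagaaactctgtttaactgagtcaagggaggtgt
Genes with the element that were not called include Ifit3 (-0.34 ± 0.17), Oas1a (-0.25 ± 0.18), Stat2 (0.10 ± 0.09) and Gbp3 (0.20 ± 0.18).

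Genes of autophagy and the lysosome had 5 of 32 members lower and 1 higher. Gabarapl1, an ATG8 protein, read 11.76, 11.61 and 12.13 at ZT4 and 11.31, 11.04 and 11.10 at ZT16 (-0.68 ± 0.12). Ulk1, the kinase that starts autophagy, fell by 0.61 ± 0.11, and the mitophagy receptor Bnip3 rose by 0.57 ± 0.08. Ctsl, a lysosomal protease, differed by -0.38 ± 0.10 (adjusted p = 0.0156), and its adjusted p was 0.0552 to 0.0738 without ZT4 replicate 3, ZT16 replicate 2 or ZT16 replicate 3. The lower count was 2 without ZT4 replicate 3 or ZT16 replicate 3 and 3 without ZT4 replicate 1 or ZT16 replicate 2.

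Protein synthesis and energy machinery had few called members. Limma called none of 33 ribosomal protein genes, 44 genes of oxidative phosphorylation or 18 of the TCA cycle, and 1, 4 and 3 of them had an unadjusted p under 0.05. The medians of these lists were 0.00, 0.10 and 0.08. In ribosome biogenesis 4 of 37 were higher (Nop16, Nolc1, Rrs1 and Nop2, by 0.34 to 0.45), and each of these calls was lost when ZT16 replicate 3 or ZT4 replicate 3 was left out (adjusted p 0.056 to 0.271). In the proteasome 2 of 32 were lower, against 3.5% of all genes, Psmd1 by 0.34 ± 0.07 and Psmd11 with -0.25 ± 0.07. The count was 4 without ZT4 replicate 2. The adjusted p of Psmd11 was 0.0383, and 0.0698 to 0.198 without ZT4 replicate 1 or 3 or ZT16 replicate 2 or 3. In replication genes Rrm2, of ribonucleotide reductase, differed by 0.93 ± 0.23 (adjusted p = 0.0126), with 0.104 without ZT4 replicate 1 and 0.0836 without ZT16 replicate 1.

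**Figure D4:**
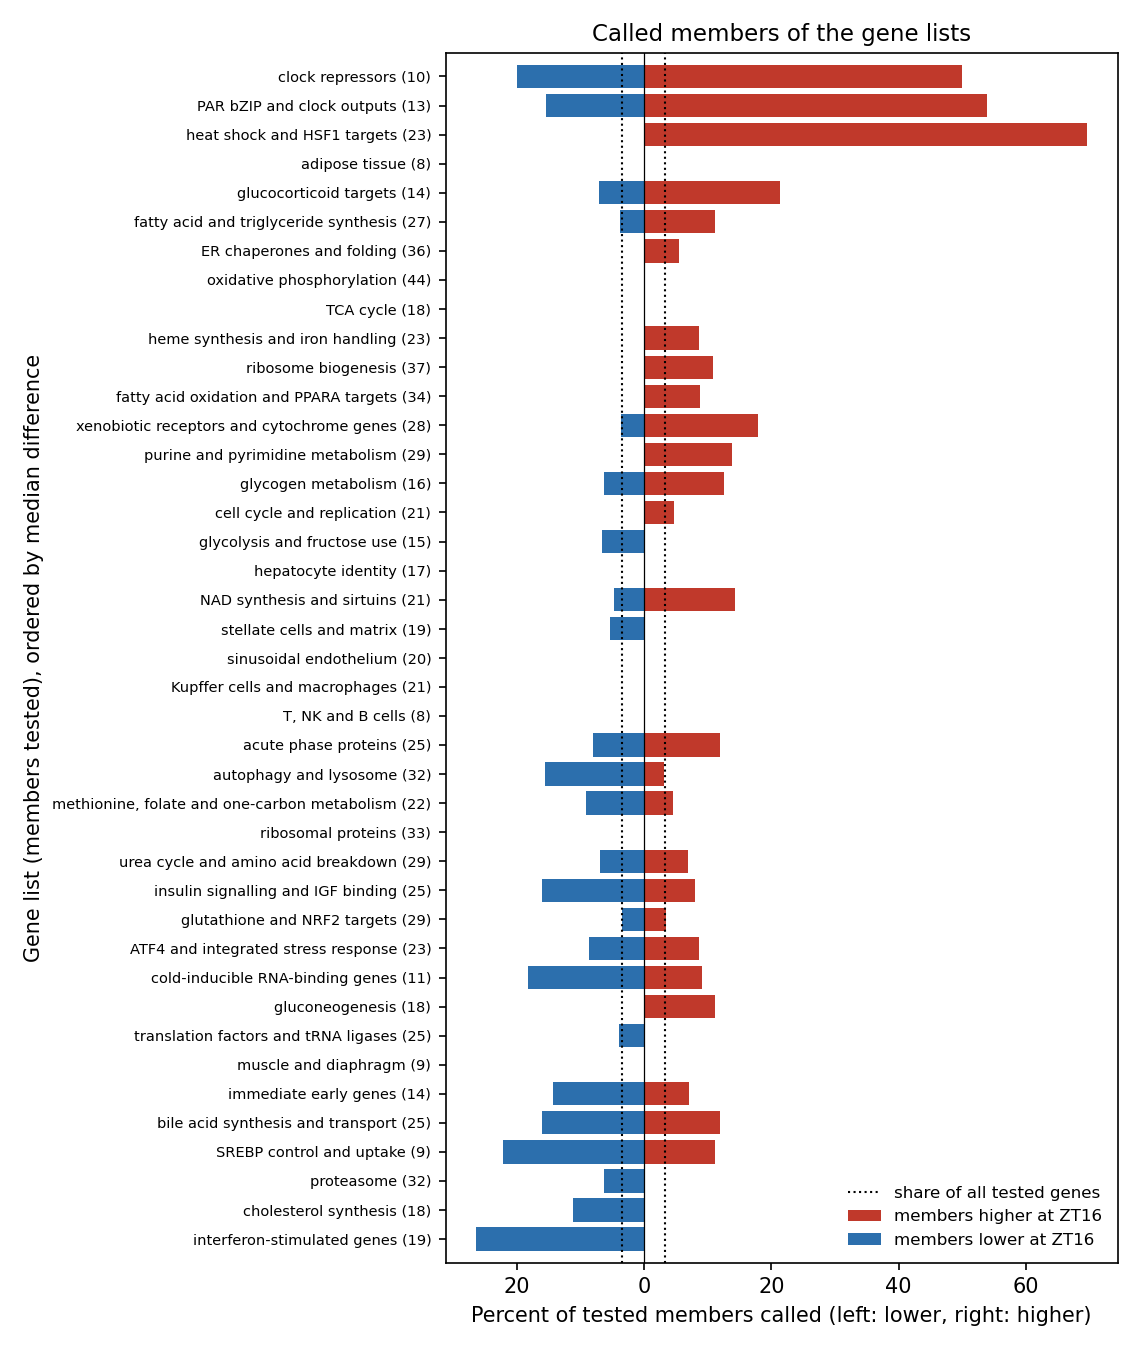
Percent of tested members called lower (blue, to the left) and higher (red, to the right) at ZT16 in each list with at least 8 tested members, ordered by median difference, with dotted lines at the shares of all tested genes, 3.5% lower and 3.26% higher. Heat shock genes reach furthest to the right with 16 of 23, and interferon-stimulated genes furthest to the left with 5 of 19.

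The same step on the high fat diet was compared to see which of these differences depend on diet. These are other samples, so the means compared share no arrays. The spread of each gene was estimated over all 36 arrays for both steps, so the 2 sets of calls are not independent. On the high fat diet 490 genes were called (3.51%), 258 higher (1.85%) and 232 lower (1.66%). Of these, 236 were called in the same direction on chow, which is 25% of the chow calls and 48.2% of the high fat calls, and none was called in opposite directions. A call on 1 diet alone does not show a difference. The difference of the 2 steps was called for 10 genes (0.0717%), of which 8 were called on chow, and 1273 genes had an unadjusted p under 0.05. In a fit on the 12 arrays alone limma called 0 (1249 at an unadjusted p under 0.05), and with array weights it called 444. It called 3 without high fat diet ZT16 replicate 3, 5 without high fat diet ZT4 replicate 2 or chow ZT16 replicate 2, and 6 without high fat diet ZT16 replicate 2 or chow ZT16 replicate 3.

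In 3 clock repressors the step was smaller on the high fat diet. Ciart rose by 2.08 on chow and differed by -0.25 on the high fat diet, a difference of the steps of -2.33 ± 0.40 (SE, limma adjusted p = 0.00953). Its ZT4 mean was 5.46 on chow and 7.14 on the high fat diet, and its ZT16 means were 7.54 and 6.88. Per2 rose by 2.04 on chow and 0.97 on the high fat diet (difference of the steps -1.07 ± 0.19, adjusted p = 0.0098), with ZT4 means of 7.16 and 7.94. Per3 had steps of 1.17 and 0.11 (-1.06 ± 0.20, adjusted p = 0.0225). The call for Ciart held with any of the 12 arrays left out, and Per2 had an adjusted p of 0.0547 without high fat diet ZT16 replicate 3. Per3 lost its call without any of 9 arrays (up to 0.129) and kept it without high fat diet ZT16 replicate 2, high fat diet ZT4 replicate 3 or chow ZT4 replicate 3. In Nr1d1 the steps were -3.70 and -3.32 and their difference of 0.38 ± 0.37 did not pass (adjusted p = 0.825).

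Genes that fell or tended down on chow made up the other called differences. Elovl3, an elongase of very long chain fatty acids, differed by -0.46 on chow and rose by 0.94 on the high fat diet (1.40 ± 0.21, adjusted p = 0.00231). Rnf125 fell by 1.04 on chow and differed by -0.09 on the high fat diet, and Rfx4 fell by 1.16 and differed by -0.20. Asap2, a GTPase-activating protein, fell by 0.52 and differed by 0.27, and Cpeb2, a regulator of translation, fell by 0.55 and differed by 0.25. Fpgs, which adds glutamates to folate, differed by -0.25 on chow and rose by 0.52 on the high fat diet. Kmt5b, a histone methyltransferase, fell by 0.49 and differed by 0.12. Elovl3 and Fpgs kept their calls with any of the 12 arrays left out, and Asap2 had an adjusted p of 0.0673 without high fat diet ZT16 replicate 3. Rfx4 kept its call only without high fat diet ZT16 replicate 1, high fat diet ZT4 replicate 3 or chow ZT4 replicate 2. Cpeb2 kept its call only without high fat diet ZT16 replicate 1, high fat diet ZT4 replicate 1 or chow ZT4 replicate 1. Kmt5b kept its call only without high fat diet ZT16 replicate 1, chow ZT4 replicate 1 or chow ZT4 replicate 3. Rnf125 lost its call without replicate 2 or 3 of high fat diet ZT4, high fat diet ZT16 or chow ZT16, or without chow ZT4 replicate 3. Where these calls were lost, adjusted p reached 0.201.

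**Figure D5:**
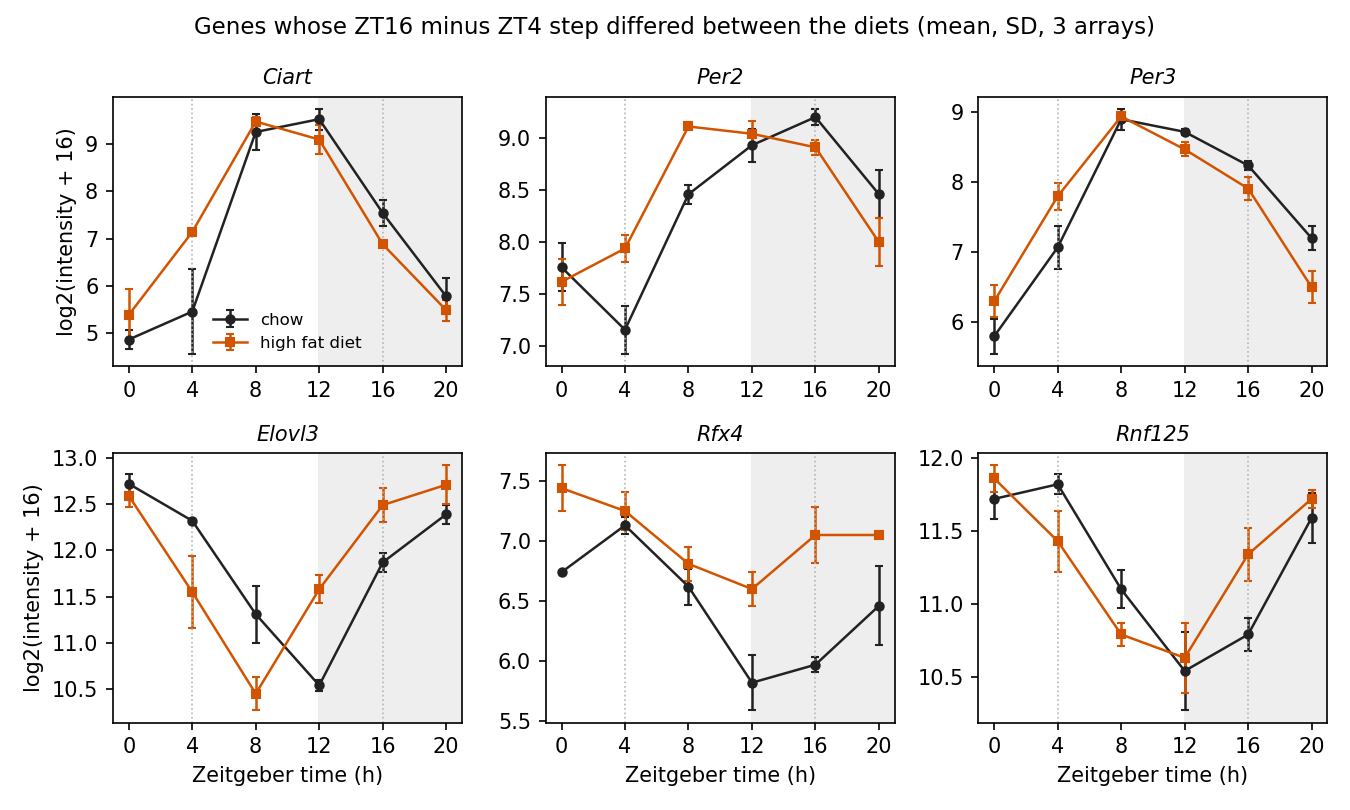
Level over the day, log2(intensity + 16), on chow (black) and high fat diet (orange) for 6 genes whose ZT16 minus ZT4 step differed between the diets, as means with SD of 3 arrays, with dotted lines at ZT4 and ZT16 and the dark phase shaded. At ZT4 Ciart stood at 5.46 on chow and 7.14 on high fat diet, and Elovl3 at 12.32 and 11.55.

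Chaperones and sterol genes showed how lists compared between the diets. Heat shock genes had 5 of 23 higher on the high fat diet, with a median of 0.27, against 16 and 0.51 on chow. Hsph1 rose on both, by 1.51 and 1.01, and the difference of the steps did not pass (adjusted p = 0.63). In cholesterol synthesis 9 of 18 genes were lower on the high fat diet with a median of -0.61, against 2 and -0.23 on chow. The difference of a whole list between the diets was not tested.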

How the data were processed

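The authors' deposited values are linear intensities, 1 per probe set and array, made with Affymetrix Expression Console 1.1.1 and PLIER 2.0 per the submitters' processing notes. Which background correction and array normalization they used is not given in the sources used here. From these, log2(intensity + 16) was computed without further scaling.

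Of 35556 probe sets, the platform annotation paired 21789 with 1 gene and 1621 with several, and 12146 are unnamed here. Symbols were updated by entrez identifier to RefSeq (GRCm38.p6). The brightest probe set stood for each of 19938 genes, and the 13956 genes whose mean log2 level passed its 30th percentile (6.11) were tested, with 918 of the 1071 list symbols among them. Limma 3.58.1 in R 4.3.3 fitted 1 mean for each of 12 groups over 36 arrays (24 residual degrees of freedom), with calls at a Benjamini-Hochberg adjusted p under 0.05. SD is over 3 arrays and SE is from the fit. Python 3.11.15 with pandas 2.3.3 and numpy 2.4.6 made the summaries.

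The fit was first tested on simulated data, with 50 changed genes for each size of difference. It recovered 14% of differences of 0.25, 64% of those of 0.5 and 98% of those of 1, with 2 false calls. Small differences can thus be missed in lists without called members. The simulated noise was independent and had no arrays of low weight.

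The samples, gene lists and naming rule were chosen with earlier results of these data known. The rule named the 12 highest and 12 lowest called differences whose arrays did not overlap and every clock list member. In each other list it took at most the 4 called members of smallest p (or, with none called, the member of smallest p) and the 5 highest and 5 lowest called diet differences. Not all of these are described, and list members given without the rule were named to account for a list. Alternatives changed scaling, the filter, the offset, probe set averaging, array weights, the variance prior, the arrays fitted, the replicate block and the threshold. Leaving out both arrays of low weight was added after seeing the data. Promoter letters came from RefSeq windows of 300 bases, which 11058 tested genes had.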

Additional observations from a re-analysis of the deposited data

Results flagged for a closer look

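The step from ZT4 to ZT16 differed between chow and the high fat diet for 10 genes, by limma's test of the difference of the steps (high fat diet minus chow) at an adjusted p under 0.05. The difference was negative in Ciart (-2.33 ± 0.40 SE), Per2 (-1.07 ± 0.19) and Per3 (-1.06 ± 0.20). It was positive in Elovl3 (1.40 ± 0.21), Rfx4 (0.96 ± 0.19), Rnf125 (0.95 ± 0.18), Cpeb2 (0.80 ± 0.15), Asap2 (0.79 ± 0.14), Fpgs (0.77 ± 0.12) and Kmt5b (0.61 ± 0.12). With any 1 of the 12 arrays left out, Ciart stayed between -2.85 and -2.03, Elovl3 between 1.18 and 1.55 and Fpgs between 0.71 and 0.84, and these 3 kept their calls. Groups of 3 arrays were not searched for outlying samples.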

How the results depend on the processing

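The 944 calls became 623 with median centring, 177 in the fit on the 6 arrays alone, 1651 with array weights, 427 at an adjusted p under 0.01 and 224 at 1.5-fold or more, and 605 to 797 with 1 array left out. The 455 higher calls became 258 without both arrays of low weight, 95 on the 6 arrays alone, 213 at an adjusted p under 0.01 and 119 at 1.5-fold, and 299 to 426 with 1 array left out. The 489 lower calls became 272 with median centring, 315 on the 18 chow arrays, 82 on the 6 arrays alone, 1121 with array weights, 214 at an adjusted p under 0.01 and 105 at 1.5-fold, and 265 to 498 with 1 array left out. The 10 diet differences became 0 on the 12 arrays alone, 444 with array weights and 5 at an adjusted p under 0.01, and 3 to 12 with 1 array left out. The arrays behind the widest of these ranges are given with the counts themselves. The remaining counts, including those with quantile normalization (514 higher and 635 lower), the other filters and offsets, stayed within 1.5 times. Fewer arrays lower the degrees of freedom, and the cause of the other shifts was not tested. Deviations of same-numbered samples at the 2 times correlated at 0.221, 0.379 and -0.203, and those of differently numbered samples at -0.422 to 0.401. That shows no clear pairing by number, and so few samples cannot exclude one. With the replicate block 461 genes were higher and 487 lower (948 in all), the diet differences stayed at 10, and 4 named calls were lost and 1 was gained. Of 117 named calls on chow, 50 held in every alternative run for them (19, or 18 for 5 genes that 1 filter removed), 37 were lost in 1 to 5 and 30 in more, and none changed sign. The fit on the 6 arrays alone lost 63.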
